A study of Rattus norvegicus with 12 samples.

Results

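The genes described here make glutathione or attach it to other molecules: the transferases Gsta3, Gsta4, Gstm1, Gstm2, Gstp1, Gstt1 and Mgst1, and the synthesis genes Gclc, Gclm and Gss. Their transcripts were measured in rat left ventricle, in 6 samples taken after 7 weeks of treadmill running and in 6 samples from sedentary animals. Each sample gave total RNA for 1 single-channel array of 8740 probe sets, and each sample is called here by its group and label number (1, 4, 5, 7, 8 and 9 for exercised, 13, 16, 17, 21, 23 and 24 for sedentary). The labels name no strain, age, sex, running schedule or time of tissue collection, and do not tie each number to an animal of its own, so the p-values reflect only how these samples vary, which could in part be technical. The genes were chosen by name, with earlier results of these data known. Their probe sets are all those whose platform annotation gives 1 symbol equal to one of the 10 names. This gave 20 of the 8740 probe sets, at least 1 for each of the 10 genes, out of 4736 genes named singly on the array. Of the 20, 16 passed the filter on mean intensity over all 12 arrays and were tested, and each of the 10 genes kept at least 1.

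Glutathione is a small peptide of glutamate, cysteine and glycine, and it is the main thiol that buffers a cell against oxidants. Glutamate-cysteine ligase joins glutamate to cysteine, the rate-limiting step, and consists of a catalytic subunit (Gclc) and a modifier subunit (Gclm). Glutathione synthetase (Gss) then adds glycine. The transferases attach glutathione to reactive products, among them the aldehydes of peroxidised membrane lipids, which matters in a muscle that beats on mitochondrial respiration. Many of these genes are known targets of the transcription factor Nrf2, the product of Nfe2l2, which binds the antioxidant response element.

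The upstream sequences of the 3 genes whose windows hold the core of that element are shown because the element is a known feature in the regulation of many of these genes. RefSeq windows (build GRCr8, 250 bases before to 50 after each start) were matched for 9 of the 10 genes, as 10 windows, since Gsta3 has 2. The core was searched as TGACNNNGC on both strands. It was found in 3 of the 10 windows, against 12.1% of all 33469 rat windows of that length. The Gsta3 stretch is chr9:31154909-31154988 (plus strand), the Gstp1 stretch chr1:210769723-210769802 (minus strand) and the Gclm stretch chr2:213031927-213032006 (plus strand). Each is written 5′ to 3′ along its gene, with the match in capitals. In Gclm the match reads on the opposite strand.
Gsta3: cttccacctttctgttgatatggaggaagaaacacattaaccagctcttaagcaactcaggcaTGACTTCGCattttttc
Gstp1: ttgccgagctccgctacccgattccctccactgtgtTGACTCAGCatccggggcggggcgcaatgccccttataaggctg
Gclm: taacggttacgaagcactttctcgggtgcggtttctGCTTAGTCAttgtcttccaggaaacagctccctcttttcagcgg
The Gstp1 match contains the only TGACTCA, the site of AP-1 factors, among the 10 windows, which 4.63% of all windows hold. GGGCGG, the Sp1 box, was in 5 of the 10 windows and in 33.1% of all. The ligase windows were the richest in CG dinucleotides, with 52 in Gclc and 42 in Gclm against a median of 7 over all windows, and the upstream Gsta3 window had 2. A match is a description of these letters only. In the hearts, the differences of the 3 genes with a match were of mixed sign and none passed the test.

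None of the 16 tested probe sets passed the test between exercised and sedentary ventricles (limma with a mean-variance trend, Benjamini-Hochberg adjusted p under 0.05 over 6555 tested probe sets, two-sided). Over all 6555, 21 passed, or 0.320%, so a count of 0 among 16 is near the background. At an unadjusted p under 0.05 there were 2 of 16, or 12.5%, both lower in exercised hearts, against 16.2% of all tested probe sets in either direction and 6.91% in that direction. The lower ones were Gsta3 and 1 probe set of Gss. By sign 8 probe sets were higher and 8 lower, with a median log2 difference of 0.01 against 0.00 over all tested probe sets. The median size of a difference, regardless of sign, was 0.068 against 0.061 over all. Every difference is the exercised mean minus the sedentary mean of log2(intensity + 363), so that a change of a dim probe set is understated, while intensities are linear, as deposited, and are compared between arrays but not between probe sets.

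**Figure D1:**
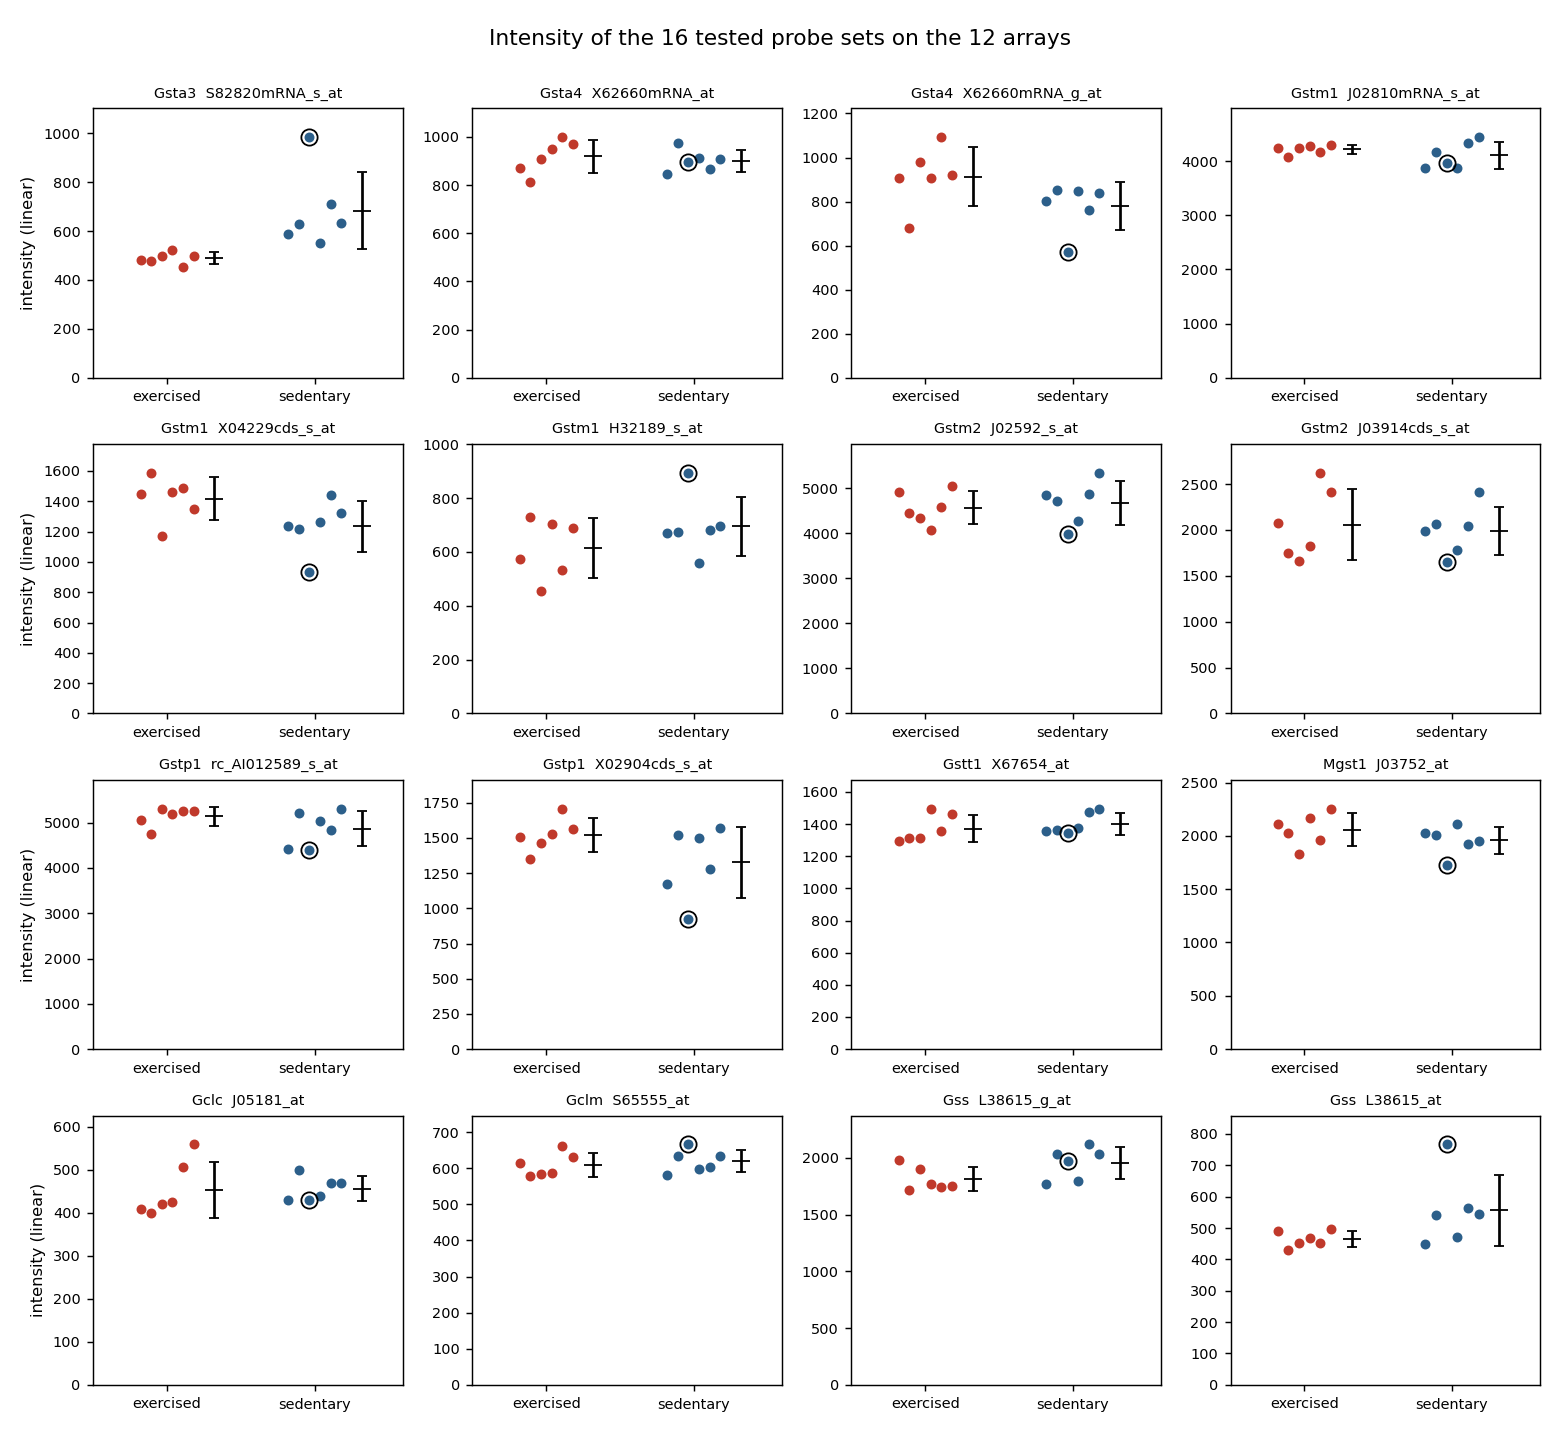
Intensity (linear scale, each panel from 0) of the 16 tested probe sets on the 6 exercised arrays (red, left) and the 6 sedentary arrays (blue, right), 1 point per array, with the mean and SD beside each group. The ring marks sedentary 17. Gsta3 is the only panel in which the groups do not overlap, with exercised values from 455 to 524 and sedentary values from 551 to 984.

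Sedentary 17 stood apart from the other arrays. It was the highest or lowest sedentary array for 12 of the 16 tested probe sets (75.0%), and likewise for 67.5% of all 6555, where each of the other sedentary arrays was an extreme for 23.5% to 30.6%. Exercised 4 was the lowest exercised array for 9 of the 16 probe sets and the highest for 2, so an extreme for 68.8% of them, against 32.8% of all. Array medians lay between 840 and 875, and the labels give no batch or scan date.

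Gsta3, an alpha-class transferase, had the lowest p of the 10 genes. Its probe set S82820mRNA_s_at had a lowest, median and highest intensity of 455, 491 and 524 on exercised arrays, against 551, 632 and 984 on sedentary arrays. Every exercised array was below every sedentary one, which held for 1 of the 16 probe sets and for 2.07% of all tested (0.580% with the exercised arrays lower). Means were 489.7 ± 23.6 in exercised and 683 ± 157 in sedentary hearts (SD, n = 6 each). The log2 difference was -0.28 ± 0.074 (SE), with a 95% interval of -0.44 to -0.12, a limma adjusted p of 0.0934 and an unadjusted p of 0.00191. The exact permutation test over the 924 splits gave p = 0.00216 (two-sided), the smallest it can give, and an adjusted p of 0.104 over all probe sets.

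The highest Gsta3 value was that of sedentary 17, at 984 against 551 to 711 on the other 5 sedentary arrays. Without it the sedentary mean was 622 ± 60.0 (SD, n = 5) against 489.7 in exercised hearts. The log2 difference was then smaller, at -0.21 ± 0.038 (SE), and passed the test, with a limma adjusted p of 0.0393, in a fit where 24 of the 6555 probe sets passed (0.366%). A fit that weights each array by its fit to the model gave sedentary 17 the lowest weight, 0.117, against 0.728 to 1.63 for the others. Gsta3 gave -0.20 in it with an adjusted p of 0.0299, and 160 probe sets passed (2.44%). The call did not hold without sedentary 16 and 17 together, a pair chosen after seeing the data (-0.20, adjusted p = 0.0857). With any 1 of the other 11 arrays left out it was not made either, with adjusted p from 0.0714 without sedentary 13 to 0.193 without sedentary 23.

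**Figure D2:**
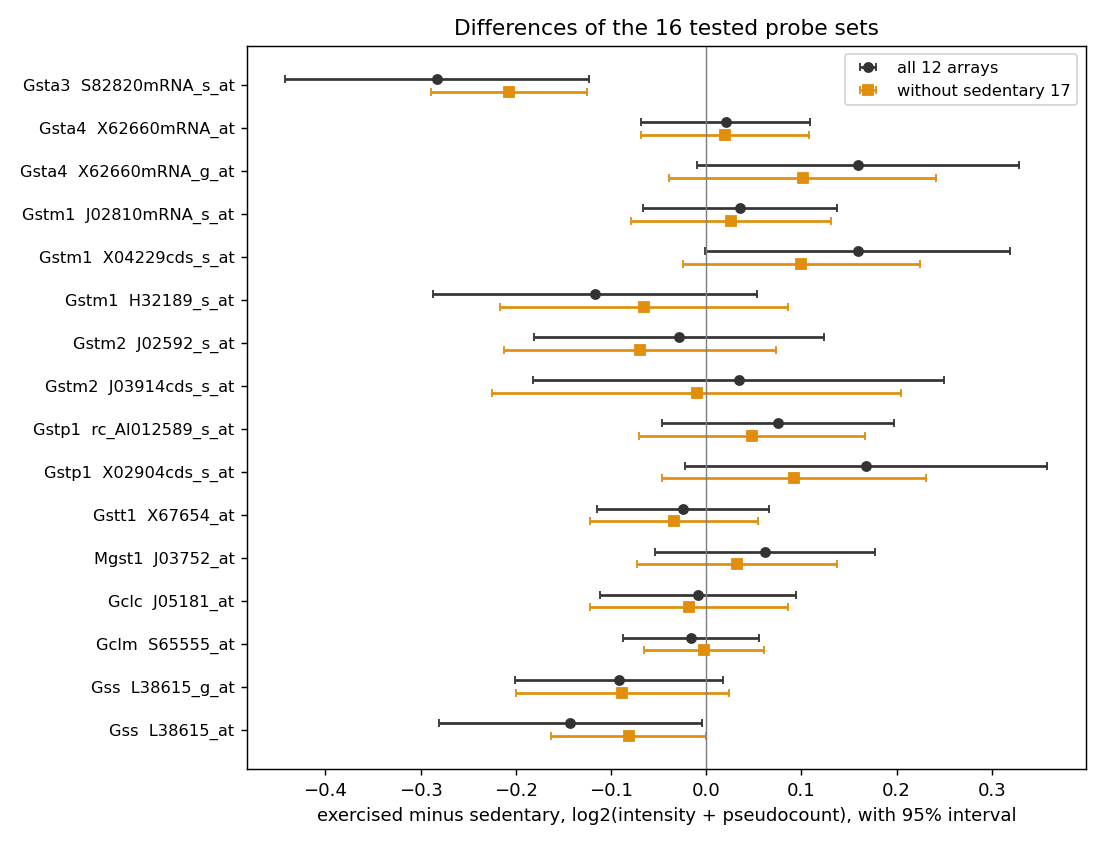
Exercised minus sedentary difference of the 16 tested probe sets (x axis, log2 scale, bars are 95% intervals) with all 12 arrays (dark circles) and without sedentary 17 (orange squares). The interval of Gsta3 lies below 0 in both, at -0.44 to -0.12 with all arrays and -0.29 to -0.13 without sedentary 17. That of Gss L38615_at does too, at -0.28 to -0.0048 with all arrays and -0.16 to -4.9e-05 without sedentary 17.

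Gsta3 had 2 more probe sets, both below the filter and so given without a test. On rc_AA945082_at the lowest, median and highest intensities were 249, 269 and 291 in exercised hearts and 158, 260.1 and 286 in sedentary hearts. On S72506_s_at they were 154, 179 and 210.3 in exercised hearts and 180.2, 210.1 and 218 in sedentary hearts. The groups overlapped on both, and the log2 differences had opposite signs, 0.06 and -0.05. The probe set that was tested was itself dim, at the 35.2th percentile of all probe sets by mean intensity. RefSeq lists Gsta5 and Yc2 as other names of this gene, and some alpha-class genes are close in sequence, so which of them the probe set measures is uncertain. With group means removed, the probe sets whose pattern over the 12 arrays was most like that of Gsta3 were those of Ache (Pearson r = 0.989), Emd (0.981) and Nup58 (0.974). These arrays share sedentary 17, and over the other 11 the values were 0.940, 0.891 and 0.850.

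Gsta4, the alpha-class enzyme that conjugates the lipid peroxidation product hydroxynonenal, did not pass on either probe set. On X62660mRNA_at the lowest, median and highest intensities were 813, 929.7 and 999 in exercised hearts and 845, 902 and 974 in sedentary hearts. The difference was 0.02 ± 0.041 (SE, 95% interval -0.07 to 0.11, limma adjusted p = 0.820), and the groups lay over each other. On X62660mRNA_g_at they were 678, 913 and 1092 in exercised hearts and 569, 823 and 851 in sedentary hearts. This probe set gave 0.16 ± 0.079 (interval -0.01 to 0.33, adjusted p = 0.338), and exercised 4 and sedentary 17 were the lowest of their groups. Without sedentary 17 it gave 0.10, and without exercised 4 it gave 0.22 (unadjusted p = 0.00715, limma adjusted p = 0.179).

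The mu-class transferases Gstm1 and Gstm2, neighbours on chromosome 2 that share much of their sequence, gave 5 tested probe sets of mixed sign. The brightest of Gstm1, J02810mRNA_s_at, had 4080.1, 4233 and 4297 (lowest, median, highest) in exercised hearts and 3863, 4069 and 4441 in sedentary hearts. The exercised values lay inside the sedentary range, and the difference was 0.04 ± 0.047 (SE, 95% interval -0.07 to 0.14, limma adjusted p = 0.718). Its X04229cds_s_at had 1171, 1454 and 1587 in exercised hearts and 931, 1249 and 1441 in sedentary hearts, a difference of 0.16 ± 0.075 (adjusted p = 0.311), and 0.10 without sedentary 17, the lowest sedentary array. Its dimmest, H32189_s_at, went the other way, at -0.12 ± 0.079 (adjusted p = 0.479), with 456, 633 and 731 in exercised hearts and 558, 678 and 894 in sedentary hearts. Here sedentary 17 was the highest, and without it the difference was -0.07.

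Gstm2 had 4070.4, 4512 and 5058 in exercised hearts and 3993, 4785 and 5339.7 in sedentary hearts on J02592_s_at. Exercised values again lay inside the sedentary range, with a difference of -0.03 ± 0.071 (SE, 95% interval -0.18 to 0.12, limma adjusted p = 0.856). Its J03914cds_s_at had 1663, 1949 and 2622 in exercised hearts and 1645, 2017 and 2418 in sedentary hearts, a difference of 0.03 ± 0.10 (adjusted p = 0.883), the widest error of the 16 probe sets. The sign of this difference turned to -0.01 without sedentary 17.

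Gstp1, the pi-class transferase known in rat as a marker of early liver lesions, was higher by sign on both probe sets and passed on neither. On rc_AI012589_s_at the lowest, median and highest intensities were 4744, 5226 and 5308 in exercised hearts and 4386, 4939 and 5299 in sedentary hearts (0.08 ± 0.057 SE, limma adjusted p = 0.520). On X02904cds_s_at they were 1349.6, 1518 and 1708 in exercised hearts and 924, 1391 and 1569 in sedentary hearts. All 6 exercised arrays were above the sedentary mean of 1328 there, but the groups overlapped, and the difference was 0.17 ± 0.089 (95% interval -0.02 to 0.36, adjusted p = 0.366). Sedentary 17 was the lowest array on both, and without it the differences were 0.05 and 0.09.

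Gstt1, a theta-class transferase, had 1296, 1337 and 1492 in exercised hearts and 1345, 1368 and 1496 in sedentary hearts, with a difference of -0.02 ± 0.042 (SE, 95% interval -0.11 to 0.07, limma adjusted p = 0.782). Mgst1, a transferase and peroxidase of microsomal and mitochondrial membranes, had 1826, 2071 and 2255 in exercised hearts and 1729, 1977 and 2110.3 in sedentary hearts. Its difference was 0.06 ± 0.054 (interval -0.05 to 0.18, limma adjusted p = 0.582), and 0.03 without sedentary 17 and 0.04 without exercised 9. The groups overlapped for both genes.

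The subunits of glutamate-cysteine ligase gave the smallest differences. Gclc had 399, 422 and 559 in exercised hearts and 429, 454 and 499.8 in sedentary hearts. Exercised 8 and 9 were above all sedentary arrays and the other 4 exercised arrays below all of them, and the difference was -0.01 ± 0.048 (SE, 95% interval -0.11 to 0.09, limma adjusted p = 0.942). Gclm had 578, 599.7 and 660.4 in exercised hearts and 580.4, 618 and 666 in sedentary hearts on S65555_at, a difference of -0.02 ± 0.033 (interval -0.09 to 0.06, adjusted p = 0.831). Both Gclc and Gclm were dim, at the 26.5th and 37.0th percentile by mean intensity, so a change could be understated here. The other Gclm probe sets, S65555_g_at and rc_AI233261_i_at, were below the filter, with means of 320.4 and 66.5 in exercised hearts against 307 and 54.7 in sedentary hearts.

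Gss was lower by sign on both probe sets, whose names share L38615, so their agreement may not be independent. On the brighter L38615_g_at the lowest, median and highest intensities were 1714, 1762 and 1984 in exercised hearts and 1766, 2006 and 2119 in sedentary hearts. This is a difference of -0.09 ± 0.051 (SE, 95% interval -0.20 to 0.02, limma adjusted p = 0.388), with 5 of 6 exercised arrays below the sedentary mean. On L38615_at they were 431, 459 and 497 in exercised hearts and 448, 543 and 767 in sedentary hearts. All 6 exercised arrays were below the sedentary mean of 556, but the groups overlapped. The difference was -0.14 ± 0.064 (95% interval -0.28 to -0.0048, limma adjusted p = 0.288, unadjusted p = 0.0435). This probe set was dim, at the 30.5th percentile by mean intensity. Without sedentary 17, which held the highest value, L38615_at gave -0.08 (unadjusted p = 0.0499) and L38615_g_at -0.09. Of the 12 limma refits that each left out 1 array, 5 kept the unadjusted p of L38615_at under 0.05 and 7 did not.

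**Figure D3:**
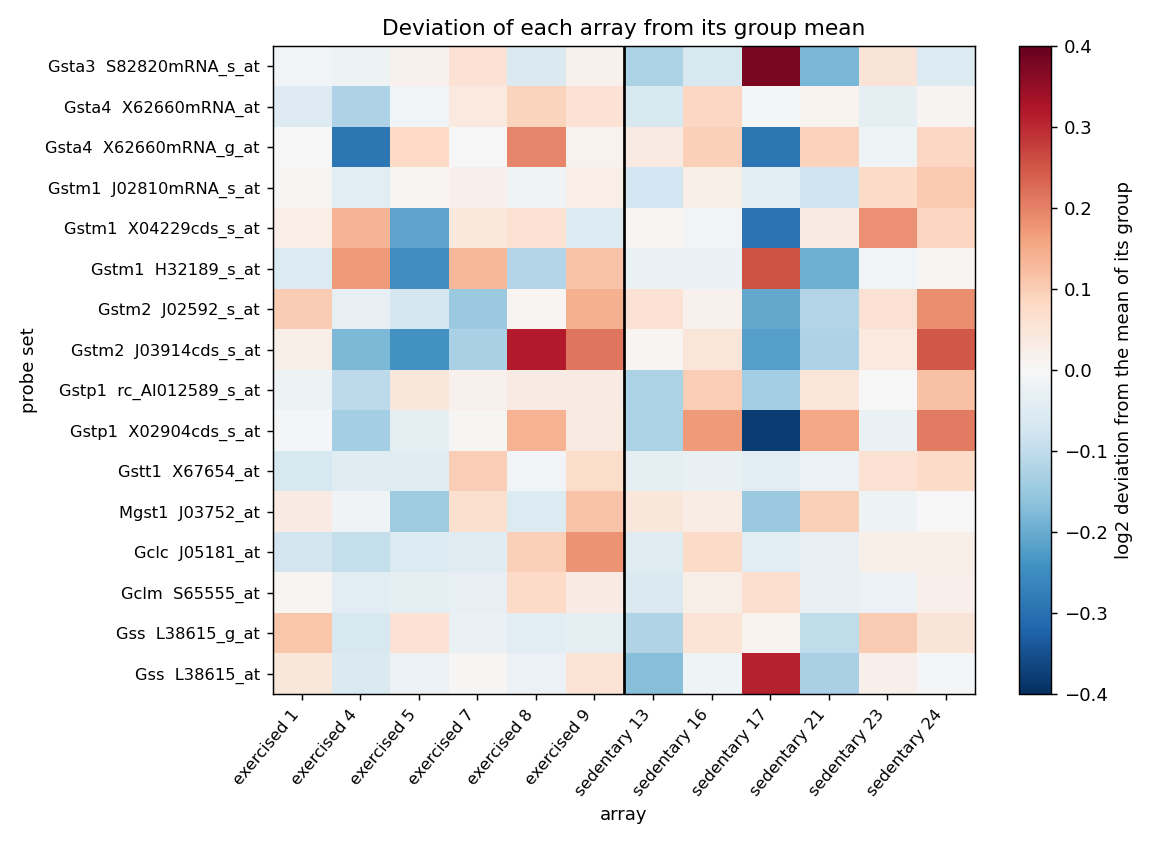
Deviation of each array (columns, exercised left of the line, sedentary right) from the mean of its own group, on the log2 scale, for the 16 tested probe sets (rows); red is above and blue below the group mean. The strongest red and blue are both in the column of sedentary 17, at 0.38 for Gsta3 and -0.38 for Gstp1 X02904cds_s_at, followed by 0.32 for exercised 8 on Gstm2 J03914cds_s_at and 0.31 for sedentary 17 on Gss L38615_at.

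Across the arrays, sedentary 17 did not move these probe sets one way. It was the highest sedentary array for 4 of the 16 and the lowest for 8, and the root mean square of its deviations from the sedentary mean was 0.22 on the log2 scale, the same as over all tested probe sets (0.22). Exercised 4 deviated by 0.12 on the same measure, against 0.11 over all. Without sedentary 17 the median difference of the 16 was -0.01, with 7 higher and 9 lower by sign. Without exercised 4 it was 0.03, with 9 higher and 7 lower, and no probe set passed. The 95% intervals of all 16 differences lay between -0.44 and 0.36 with all arrays.

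Other genes of the pathway were taken from lists, each gene counted by its brightest probe set, and gave none past the test. Unadjusted counts in these lists stand against 16.2% of all tested probe sets in either direction. Transferases outside the set formed a list that also held Alox5ap, a lipoxygenase-activating protein, which is not a transferase and was lower by sign. Of the 10 tested genes of this list, 6 were higher and 4 lower by sign (median 0.01), and 1 had an unadjusted p under 0.05. This was Gstk1, the kappa-class transferase of mitochondria and peroxisomes, with 3797, 4138 and 4608 in exercised hearts and 4274, 4568 and 5604 in sedentary hearts (-0.17 ± 0.065 SE, limma adjusted p = 0.204). Its other probe set gave -0.24 (limma adjusted p = 0.413), and -0.09 without sedentary 17. Over all 16 tested probe sets of this list, 2 were higher and 1 lower at an unadjusted p under 0.05. The higher ones, picked after their values were seen, were a dimmer probe set of Gstt2 (rc_AI138143_at, 0.17) and one of Gstm5 (U86635_g_at, 0.14, and 0.10 without sedentary 17). The brightest probe sets of these genes gave smaller differences, 0.12 for Gstt2 and 0.05 for Gstm5.

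Among 18 tested genes that use or recycle glutathione, 8 were higher and 10 lower by sign (median -0.02), with none past the test and 2 at an unadjusted p under 0.05. Ggt5, a gamma-glutamyltransferase that cleaves glutathione conjugates such as leukotriene C outside the cell, had 1028, 1138 and 1397 in exercised hearts and 1221, 1515 and 1646 in sedentary hearts. All 6 exercised arrays were below the sedentary mean of 1482, and the difference was -0.26 ± 0.067 (SE, limma adjusted p = 0.0922). Dpep1, a membrane dipeptidase that acts on the products of that cleavage, gave 0.10 ± 0.039 (adjusted p = 0.232), and its other probe set 0.00. Gsr, which reduces oxidised glutathione, gave -0.07 ± 0.045 (adjusted p = 0.468), and the peroxidase Gpx1 0.12 ± 0.080 (adjusted p = 0.452), with 0.03 and 0.02 on their other tested probe sets. The Gpx1 difference was 0.07 without exercised 4. Over all 30 tested probe sets of this list, 2 were higher and 2 lower at an unadjusted p under 0.05. Those outside the genes' brightest probe sets, also picked after their values were seen, were Gpx3 D00680_at (0.22) and Anpep AF039890mRNA_s_at (-0.14). Without sedentary 17 they gave 0.16 and -0.11. The brightest Gpx3 probe set gave 0.14. The brightest Anpep probe set gave -0.11, while Anpep M25073_at went the other way, at 0.09.

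Of 10 tested genes of cysteine and methionine metabolism, which supplies the cysteine of glutathione, 5 were higher and 5 lower by sign, and none had an unadjusted p under 0.05. Among the 10 were Cdo1 and Csad, which lead cysteine away to taurine, so the count is not of supply alone. Of 14 tested Nrf2 pathway and antioxidant response genes, 8 were higher and 6 lower by sign (median 0.01), none passed, and 3 had an unadjusted p under 0.05, each higher by sign. Among all 6555 tested probe sets, 607 were higher and 453 lower at that threshold. Over all 21 tested probe sets of the Nrf2 list the count was 3 higher and 1 lower. The lower one was Cbr1 D89070cds_s_at (-0.17, and -0.13 without sedentary 17), picked after its value was seen. The brightest Cbr1 probe set gave -0.12. Ephx1, the microsomal epoxide hydrolase, had 890.0, 1359 and 1593 in exercised hearts and 738, 832 and 989 in sedentary hearts. All 6 exercised arrays were above the sedentary mean of 854, the ranges overlapped, and the difference was 0.42 ± 0.11 (SE, limma adjusted p = 0.0916). Idh1, a cytosolic source of NADPH, gave 0.19 ± 0.078 (adjusted p = 0.243), and Tkt, the transketolase of the pentose phosphate pathway, 0.08 ± 0.035 (adjusted p = 0.282). The classical Nrf2 targets Nqo1 and Hmox1 gave -0.08 ± 0.084 and 0.03 ± 0.038 (adjusted p = 0.647 and 0.723), and Nfe2l2 itself 0.01 ± 0.041 (adjusted p = 0.924). The other probe sets of Hmox1 and Nfe2l2 gave -0.06 and 0.10, and Nqo1 gave -0.13 without sedentary 17.

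**Figure D4:**
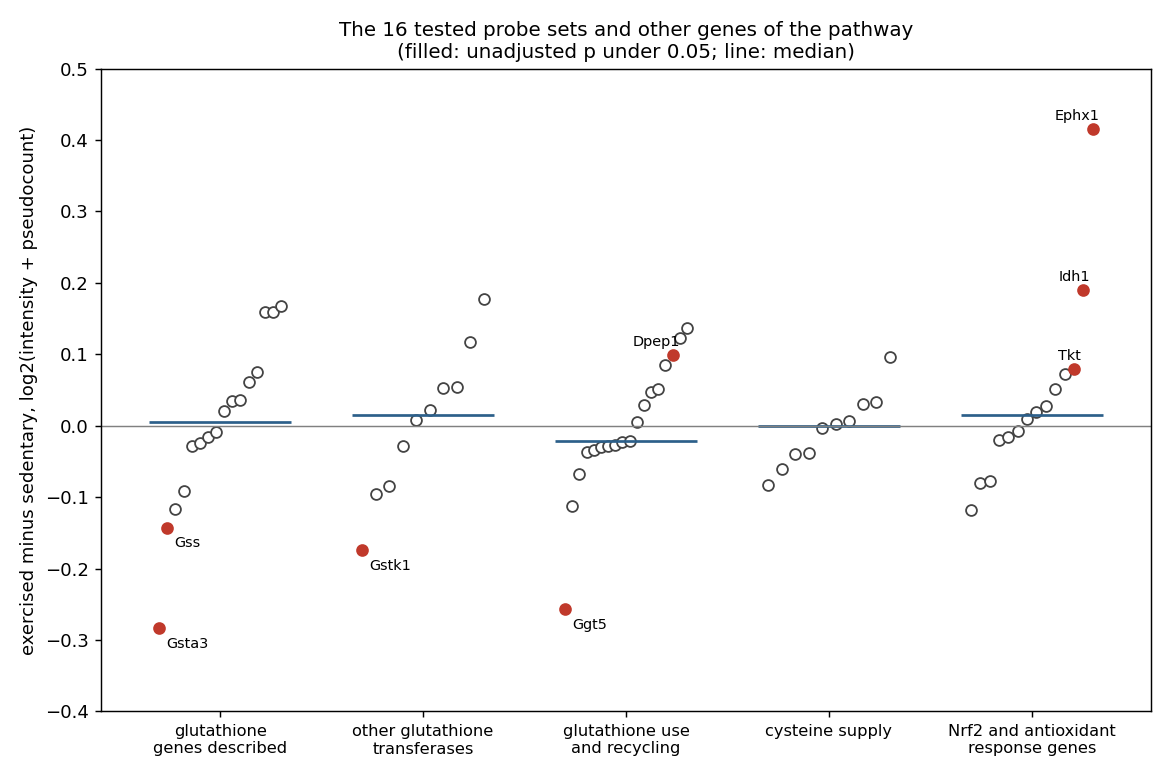
Exercised minus sedentary differences (y axis, log2 scale) of the 16 tested probe sets of the glutathione genes described and of 4 lists of other pathway genes, 1 point per probe set or gene, with the median as a line. Filled and named points have an unadjusted p under 0.05, and none passed after adjustment. The medians of the lists lie between -0.02 and 0.01.

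The summed level of cardiomyocyte markers was high in both groups, though the means of single markers ran from 726 to 53710. The summed levels of markers of other cell types differed between the groups to varying degrees. The summed intensity of 8 cardiomyocyte markers was 298224 to 320700.3 on exercised arrays and 288004 to 325084 on sedentary arrays. That of 8 fibroblast markers was 31163 to 50811 on exercised and 26844 to 34794 on sedentary arrays, with 6 of 7 tested markers higher by sign. That of 4 erythroid markers was 19899 to 65142 on exercised and 62294 to 71206 on sedentary arrays, all 4 lower by sign. The 5 hepatocyte markers, of a tissue rich in alpha-class transferases, summed to 3439 to 3608 on exercised and 3404 to 3809.8 on sedentary arrays, with 1 higher and 4 lower by sign. Of 6 macrophage markers the sum was 10328 to 16925 on exercised and 9059 to 10290.4 on sedentary arrays. By sign 3 were higher and 3 lower, from -0.17 to 0.997 on the log2 scale with a median of 0.02. Only Lyz2, the lysozyme of myeloid cells, was past the test. Of 6 smooth muscle markers the sum was 20239 to 25493 on exercised and 18430.3 to 21001 on sedentary arrays. All 5 tested ones were higher by sign. Their list names Des, which cardiomyocytes also make. The brightest smooth muscle marker had a mean of 15147, so the sum may largely follow 1 gene. The 5 adipocyte markers summed to 22482 to 26609 on exercised and 20711 to 22534 on sedentary arrays. By sign 2 were higher and 3 lower, from -0.018 to 0.26 on the log2 scale with a median of -0.00056. The brightest adipocyte marker had a mean of 13384, so this sum too may largely follow 1 gene. The 4 endothelial markers summed to 4355 to 4771 on exercised and 4478 to 5794 on sedentary arrays, with 1 higher and 3 lower. For 3 atrial markers the sums were 9389.6 to 26071 on exercised and 7960.5 to 36926 on sedentary arrays, with 1 higher and 2 lower. For 3 Schwann cell markers they were 4224 to 5152 on exercised and 3770.3 to 4616 on sedentary arrays, with both tested ones higher. No marker in these lists was at 0 on any array. The part of these differences in the values of Gsta3 was not tested, and in whole tissue fewer cells of a type and less RNA per cell cannot be told apart.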

How the data were processed

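Total RNA of 12 left ventricle samples was measured on single-channel arrays. The authors deposited a linear intensity for each probe set; no source used here states the software, background correction or scaling. Arrays were grouped by title. No label number occurs in both groups, so samples were not paired. Values below 0 would be set to 0, 363 (the 20th percentile of all values) was added before log2, and probe sets with a mean above 434 (the 25th percentile of means) were kept, 6555 of 8740. The fit was lmFit and eBayes with trend (limma 3.58.1, R 4.3.3), two-sided, adjusted over all kept probe sets, threshold 0.05. It was tested on simulated data. The number of arrays limits the precision. Names came from the platform annotation: 7006 probe sets had 1 gene, 308 several and 1426 none. The probe set with the highest mean stood for a listed gene. Named were every probe set of the 10 genes, list genes with an unadjusted p under 0.05 (at most 4 a list), Nfe2l2, Gsr, Gpx1, Nqo1 and Hmox1, and the 3 genes most like Gsta3; Keap1 and Slc7a11 were not analysed here. Genes and lists were chosen with earlier results of these data known. Alternatives were other pseudocounts, filters, scalings, eBayes settings, array weights, an exact permutation test and arrays left out.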

Additional observations from a re-analysis of the deposited data

Results flagged for a closer look

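On 4 of the 20 probe sets, 1 array lay far from the other 5 of its group, and each time this was sedentary 17. Gaps were measured against the group's range in 40 groups of 6 arrays, where chance passes about 1 in 20 groups. Its intensity was 984 for Gsta3 S82820mRNA_s_at, where the next sedentary array had 711. It was 767 for Gss L38615_at, where the next had 563. It was 569 for Gsta4 X62660mRNA_g_at, where the next lowest had 762, and 160.4 for Gclm S65555_g_at, which was below the filter, where the next lowest had 298.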

How the results depend on the processing

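Gsta3 was tested in 22 refits, all but the filter at the median intensity, which removed it, and stayed negative, between -0.33 and -0.20. It passed with array weights and without sedentary 17. The number of the 16 probe sets that passed was therefore 1 with array weights, and 0 to 1 with 1 array left out. No other of the 16 passed in any fit. Of 362 values of these probe sets under alternatives, 344 kept sign and side of the threshold and 16 changed sign, all of differences near 0. Gsta4 X62660mRNA_at was -0.0021 and Gstm2 J03914cds_s_at -0.059 with array weights. Leaving out 1 array, Gstm2 J02592_s_at ran from -0.069 to 0.0085, Gstm2 J03914cds_s_at from -0.029 to 0.084, Gclc from -0.045 to 0.010 and Nfe2l2 from -0.020 to 0.026. Without sedentary 16 and 17, Gstm2 J03914cds_s_at was -0.0088 and Gclm S65555_at 0.0067; without exercised 4 and 5, Gclc was 0.029 and Gclm S65555_at 0.0047. Both pairs were chosen after seeing the data. Among the pathway genes, Ggt5 passed with array weights (-0.29, adjusted p = 0.0400), so 1 gene that uses glutathione passed there. The number passing over all probe sets was 21, and 32 with no filter, 50 with the filter at the median, 42 without the trend, 160 with array weights, 5 without sedentary 16 and 17, 4 without exercised 4 and 5, and 3 to 37 with 1 array left out. The causes of these shifts were not tested. No paired analysis was possible because the groups share no label number.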
